A study of Mus musculus with 12 samples.

Results

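Transcript levels in mouse tongue were compared between 2 of the 4 groups of a series on 4-NQO and ethanol, the groups that the authors' tables number 2 and 3. The authors' table for this comparison lists 23235 gene rows. The rows used were those the authors marked as tested (status OK) with 1 FPKM or more in group 2 or group 3, which left 13127 genes. FPKM, the count of sequenced fragments divided by transcript length and by library size, is a relative transcript level. The series holds 12 tongue samples from C57BL/6 mice aged 31 weeks, 3 samples in each group. By the labels, the groups were mice given V.C. and otherwise untreated (V.C./Untr.), V.C. with ethanol (V.C./EtOH), 4-NQO and otherwise untreated (4-NQO/Untr.), and 4-NQO with ethanol (4-NQO/EtOH). The labels do not spell out V.C. 4-NQO, 4-nitroquinoline oxide, damages DNA through bulky adducts and gives rise to mouth tumours in mice that drink it. Neither the labels nor the tables used here say which number is which treatment, so the groups are called by their numbers. The labels do not say whether each sample was 1 mouse, and if it was not, the p-values measure only the spread between these samples.

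The upper surface of the tongue is a stratified squamous epithelium. Its cells divide in the basal layer, move outward and end as flat dead cells, each within a cornified envelope of cross-linked proteins such as the small proline-rich proteins (SPRR). The filiform papillae, the spines of the mouse tongue, add hard keratins and keratin-associated proteins of the kind found in hair. Under the epithelium lie connective tissue rich in small leucine-rich proteoglycans and elastic microfibrils, a core of striated muscle, and minor salivary glands. Stressed or wounded squamous epithelium is known to release alarmins, interleukin-1 family cytokines and chemokines that draw neutrophils.

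Each gene has 1 FPKM value per group, made by the authors from the 3 samples, and no values per sample were used here, so the depth per sample is unknown. The tongue's defining markers were present in both groups: muscle creatine kinase Ckm stood at 5514 FPKM in group 2 against 2313 in group 3, the mucosal keratin Krt4 at 2868 and 3111, the basal keratin Krt5 at 472.5 and 1220, and the salivary gene Dcpp1 at 359.9 and 108.4; none of these 4 passed the test. Differences below are log2(FPKM + 1) of group 3 minus group 2, with a standard error (SE) worked out from the deposited statistic. The SE is on this scale, while the authors tested the plain log ratio, so the difference divided by its SE is not their statistic. A gene passed when the authors' deposited q was under 0.05. Over groups 1 to 4 the median SE of a gene's log2 level was 0.138, 0.203, 0.491 and 0.33, and group 3 gave a median of 85.5% of the variance of a difference.

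Of the 13127 genes, 241 passed (1.84%), 211 higher in group 3 (1.61%) and 30 lower (0.229%). At an unadjusted p under 0.05 the directions were close to even, with 701 higher and 650 lower. The median difference over all genes tested was -0.04. The genes that rose were mostly low in group 2: their median level went from 1.35 to 10.6 FPKM, 89 of the 211 stood under 1 FPKM in group 2, and 20 stood under 0.1. A gene under 1 FPKM in group 2 was tested only if group 3 reached 1 FPKM, so it could pass only as a rise. In the same way a gene under 1 FPKM in group 3 could pass only as a fall. This limit holds for every count and median of tested or measured genes below. The genes that fell went from a median of 23.0 to 6.89 FPKM. Among the rises, 105 were 2 or more on the log2 scale and 16 were 4 or more, with a median of 2.00. Only 5 of the 30 falls reached 2, and their median was -1.67. The last genes inside the threshold were Ptgr1 (q = 0.0468), Tacc3 (q = 0.0473) and Islr (q = 0.0478) in the authors' deposited table, and the first outside, after 2310079G19Rik at the threshold itself, were Clec2l and Rilpl1 (q = 0.0509 for both).

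**Figure D1:**
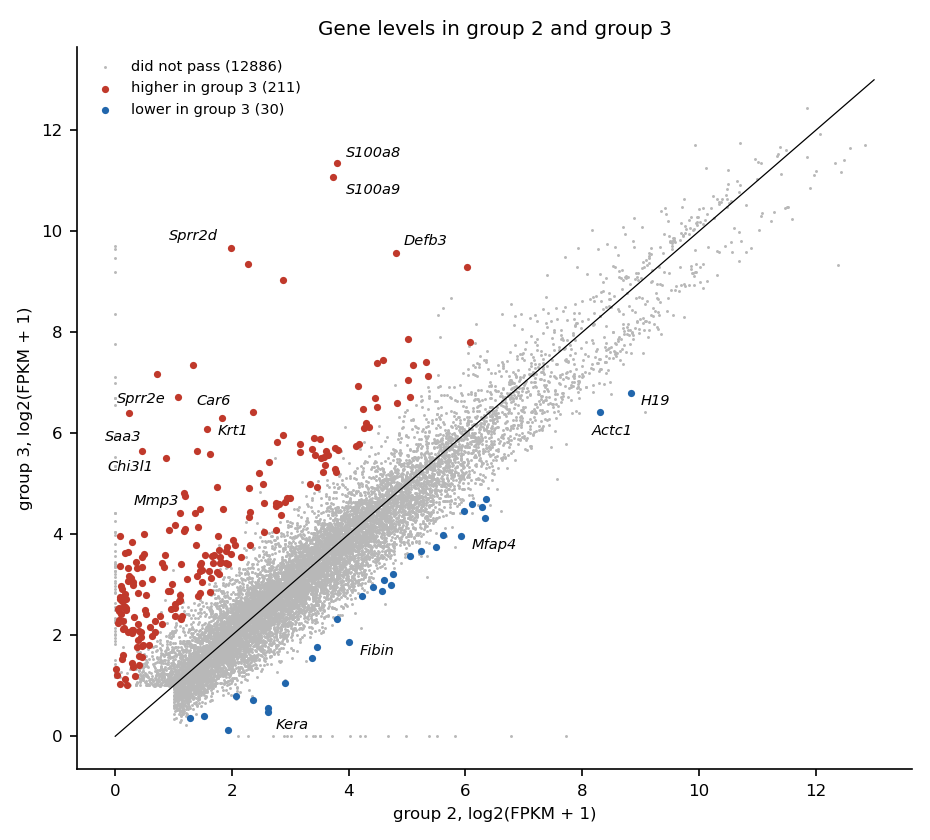
Level of each tested gene in group 2 (x axis) and group 3 (y axis), both as log2(FPKM + 1), with the line of equal levels; red points are the 211 genes that passed higher in group 3 and blue points the 30 that passed lower. The red points reach much farther from the line than the blue ones, and many lie at low levels in group 2. The grey points on the axes are among the 82 genes listed at 0 in 1 of the groups, of which 0 passed.

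Structural proteins of the cornified envelope gave the largest rises. Of 27 measured genes of the envelope, 11 rose and 0 fell, with a median of 1.13. Sprr2d (mm9 chr3:92143062-92144795) stood at 2.958 FPKM in group 2 against 815 in group 3, a difference of 7.69 ± 0.63 (SE). Sprr2i (chr3:92211913-92213193) stood at 3.837 and 651.2 FPKM (7.08 ± 0.61), and Sprr2f at 0.6413 and 144.1 (6.47 ± 0.55). The rises were unequal within the gene family: Sprr2k, in the same stretch of chromosome 3, stood at 5.838 and 55.44 FPKM (3.04 ± 0.56), and Sprr2a2 at 16.83 and 120.7 (2.77 ± 0.54). Sprr1b, a small proline-rich protein outside the Sprr2 group, rose from 64.27 to 624.1 FPKM (3.26 ± 0.70). The related Sprr3 (320.7 and 441.5 FPKM, 0.46 ± 0.61) and Sprr1a (242.9 and 816.1 FPKM, 1.74 ± 0.69) did not pass. The major envelope protein loricrin, Lor, stood at 1227 FPKM in group 2 against 1224 in group 3, and involucrin, Ivl, at 0.821 and 1.178. The late envelope genes Lce3b and Lce3c, at 270.2 and 374.7 FPKM in group 2, stood at 568.1 and 823.8 in group 3 and did not pass, while Lce1m rose from 1.77 to 9.806 FPKM (1.96 ± 0.53). The Sprr2 genes are close relatives, and sharing of reads among them was not tested.

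The Sprr2 genes are shown with the bases before their start sites because they rose together from neighbouring positions. Of the 10 Sprr2 genes that rose, 8 matched a promoter in the RefSeq table (build GRCm38.p6, 250 bases before to 50 after the start). The pattern TGANTCA, with N any base, takes in TGAGTCA and TGACTCA, the AP-1 core read by Fos and Jun proteins. It also takes in TGAATCA and TGATTCA, so the shares below are of this wider pattern. TGANTCA was searched on both strands. It was in 7 of these 8 (87.5%), against 8.97% of all 27025 promoters, 6.80% of the 10191 promoters of tested genes and 16.8% of the 161 promoters of genes that rose. In each of the 7 the letters TGAGTCA began between 193 and 198 bases before the start. In 4 printed windows, all on the + strand, capitals mark TGAGTCA and, in Sprr2i, also TTTGAA. Position by position, without alignment, Sprr2d and Sprr2i had the same base at 69.6% of positions, and Sprr2h and Sprr2i at 37.6%. TGAGTCA begins 198 bases before the start in Sprr2h and 193 in Sprr2i. These 2 windows are out of step, so 37.6% does not measure how alike they are. The Sprr2 genes are close relatives, so the 7 promoters are not independent cases. The windows are chr3:92338890-92339139 for Sprr2d, chr3:92407741-92407990 for Sprr2i, chr3:92316455-92316704 for Sprr2b and chr3:92385435-92385684 for Sprr2h.
Sprr2d: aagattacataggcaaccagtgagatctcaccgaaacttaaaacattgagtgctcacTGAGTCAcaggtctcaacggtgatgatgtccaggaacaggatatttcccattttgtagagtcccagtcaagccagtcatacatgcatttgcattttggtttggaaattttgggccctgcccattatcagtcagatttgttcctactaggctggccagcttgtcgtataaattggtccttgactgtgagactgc
Sprr2i: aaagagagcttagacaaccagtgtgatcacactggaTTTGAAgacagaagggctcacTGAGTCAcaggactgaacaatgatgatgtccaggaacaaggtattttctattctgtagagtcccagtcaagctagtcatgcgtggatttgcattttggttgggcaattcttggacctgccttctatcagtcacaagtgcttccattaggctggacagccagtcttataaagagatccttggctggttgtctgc
Sprr2b: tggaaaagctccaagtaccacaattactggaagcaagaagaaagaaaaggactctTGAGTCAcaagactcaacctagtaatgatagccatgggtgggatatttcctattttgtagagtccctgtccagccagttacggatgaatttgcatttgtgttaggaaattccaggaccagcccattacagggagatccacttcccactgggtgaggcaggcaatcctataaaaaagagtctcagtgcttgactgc
Sprr2h: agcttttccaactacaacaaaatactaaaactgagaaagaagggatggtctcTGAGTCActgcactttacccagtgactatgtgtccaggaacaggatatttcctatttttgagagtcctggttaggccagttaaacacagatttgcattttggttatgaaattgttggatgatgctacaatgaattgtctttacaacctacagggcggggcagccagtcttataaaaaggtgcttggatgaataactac

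Alarmins and antimicrobial proteins also rose. Of 11 measured, 9 rose and 0 fell, with a median of 3.52, and the summed level of the list went from 1344 to 7779 FPKM. S100a8 and S100a9 (chr3:90472993-90473956 and chr3:90496555-90499613), the subunits of calprotectin, stood at 13 and 12.31 FPKM in group 2 and 2602 and 2148 in group 3, differences of 7.54 ± 0.69 and 7.33 ± 0.73. The beta-defensin Defb3 rose from 26.91 to 758.7 FPKM (4.77 ± 0.53) and Defb14 from 31.39 to 232.2 (2.85 ± 0.58). Saa3, an acute-phase serum amyloid, rose from 0.3822 to 48.9 FPKM (5.17 ± 0.61). Chi3l1, a chitinase-like glycoprotein without enzyme activity, rose from 0.8192 to 44.57 FPKM (4.65 ± 0.51), and the iron-chelator carrier lipocalin Lcn2 from 2.368 to 29.49 (3.18 ± 0.53). The beta-defensin Defb4, already at 541.9 FPKM in group 2, stood at 691.3 in group 3 and did not pass, nor did the protease inhibitor Slpi (706.7 and 1182 FPKM). Neutrophils also make calprotectin. Of the 6 neutrophil markers measured 1 rose, the gelatinase Mmp9 (0.362 to 3.182 FPKM, 1.62 ± 0.48). Of the 6, 5 had higher values in group 3, and the median was 0.85. The list's summed level was 47.31 FPKM in group 2 and 52.69 in group 3, most of it lactoferrin, Ltf (44.47 and 39.79), which glands also make. Without Ltf the sum was 2.845 FPKM in group 2 and 12.9 in group 3. Mpo, Elane and Ngp, granule genes transcribed mainly in neutrophil precursors and not in mature neutrophils, were under 1 FPKM in both groups and so are not among the 6. They stood at 0, 0.01319 and 0.063 FPKM in group 2 and at 0.02226, 0.01168 and 0.09732 in group 3. The part of neutrophils in the alarmin levels was not tested.

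Of the interleukin-1 family, 4 of 13 measured genes rose, with a median of 1.19. They were the agonists Il1f6 (33.32 to 162.5 FPKM, 2.25 ± 0.47), Il1f9 (17.14 to 54.49, 1.61 ± 0.45) and Il1b (0.8139 to 11.06, 2.73 ± 0.56), and the receptor antagonist Il1rn (5.244 to 42.02, 2.78 ± 0.65). Il1b overlaps the gene row Gm14047, and reads of the 2 were not told apart. The receptor Il1r1 (1.799 and 2.338 FPKM) and the alarmin Il33 (15.05 and 20.09) did not pass. Of 20 chemokines and cytokines found 14 were measured, and of these 7 rose and 0 fell, with a median of 1.33. A gene under 1 FPKM in group 2 was measured only if group 3 reached 1 FPKM. The filter by itself thus tilts this count and median towards rises. The 7 genes that rose all stood under 0.5 FPKM in group 2. They were the neutrophil attractants Cxcl1 (0.4426 to 4.357 FPKM, 1.89 ± 0.56), Cxcl2 (0.1431 to 4.846), Cxcl3 (0.226 to 3.274) and Cxcl5 (0.4339 to 5.998, 2.29 ± 0.57), the macrophage chemokine Ccl3 (0.09193 to 2.059), Tnf (0.1289 to 1.199) and the interleukin-10 family cytokine Il19 (0.02973 to 4.719). Ccl20 and Il24, listed at 0 in group 2, stood at 1.421 and 1.568 FPKM in group 3 and did not pass. The NF-kappa-B regulators Nfkbiz (3.066 to 13.79 FPKM, 1.86 ± 0.45) and Bcl3 (2.948 to 11.22, 1.63 ± 0.47), chosen after their values were seen, also rose. In the same tissue no interferon-stimulated gene passed: of 18 measured, 17 had a lower value in group 3, with a median of -0.73. For Isg15 the difference was -1.70 ± 0.55 (q = 0.0727 in the authors' deposited table). Group 2 was the high one here: over groups 1 to 4 the list summed to 68.95, 179.0, 83.64 and 54.24 FPKM. Isg15 had 6.502, 49.99, 14.67 and 6.937 FPKM, with group 2 above group 1 (q listed as 0 in the authors' deposited table). Against group 1, Isg15 in group 3 had a higher value without passing (1.06 ± 0.55, q = 0.433 in the authors' deposited table).

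Hard keratins and their associated proteins rose as a block of neighbouring genes. On chromosome 11, 29 of the 36 tested genes between 99276978 and 99911865 (mm9) rose and 0 fell, with rises from 2.03 to 3.89; 35 of the 36 had a higher value in group 3. Their span of 634.9 kb was drawn from the first to the last gene that passed. It holds keratins at both ends and keratin-associated protein (Krtap) genes between them, and its summed level went from 157.2 to 601.6 FPKM. At its far end lie the hair-type keratins Krt34 (1.586 to 20.51 FPKM, 3.06 ± 0.57), Krt31 (1.685 to 16.63, 2.71 ± 0.55) and Krt33b (0.1708 to 8.073). In the middle, Krtap2-4 rose from 0.9035 to 16.06 FPKM (3.16 ± 0.65) and Krtap4-7 from 0.1641 to 7.457. Krtap3-3, at 40.65 FPKM in group 2 and 105.3 in group 3, did not pass, and Krt23, a keratin in the same span, stood at 68.02 and 60.81. Of the 9 gene rows of this span that were not tested, 7 stood under 0.1 FPKM in both groups. By symbol, 17 of 20 tested Krtap genes rose in all, with a median of 2.68, a grouping chosen after the values were seen. The 20 are from 52 Krtap rows. Of the 20, 14 stood under 1 FPKM in group 2 and so were tested only because group 3 reached 1 FPKM. That also holds for many tested genes of the span, so these shares and medians are tilted towards rises. A second keratin run on chromosome 15 held Krt83, Krt81, Krt86 and 5430421N21Rik, and all 4 rose. Krt36, the most abundant hard keratin with a value in both groups, stood at 120.8 and 188.3 FPKM and did not pass. Krt82, Krt84 and Krt85 were left untested by the authors because group 3 went over their read limit. The Krtap genes are short and alike, and here too read sharing was not tested.

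**Figure D2:**
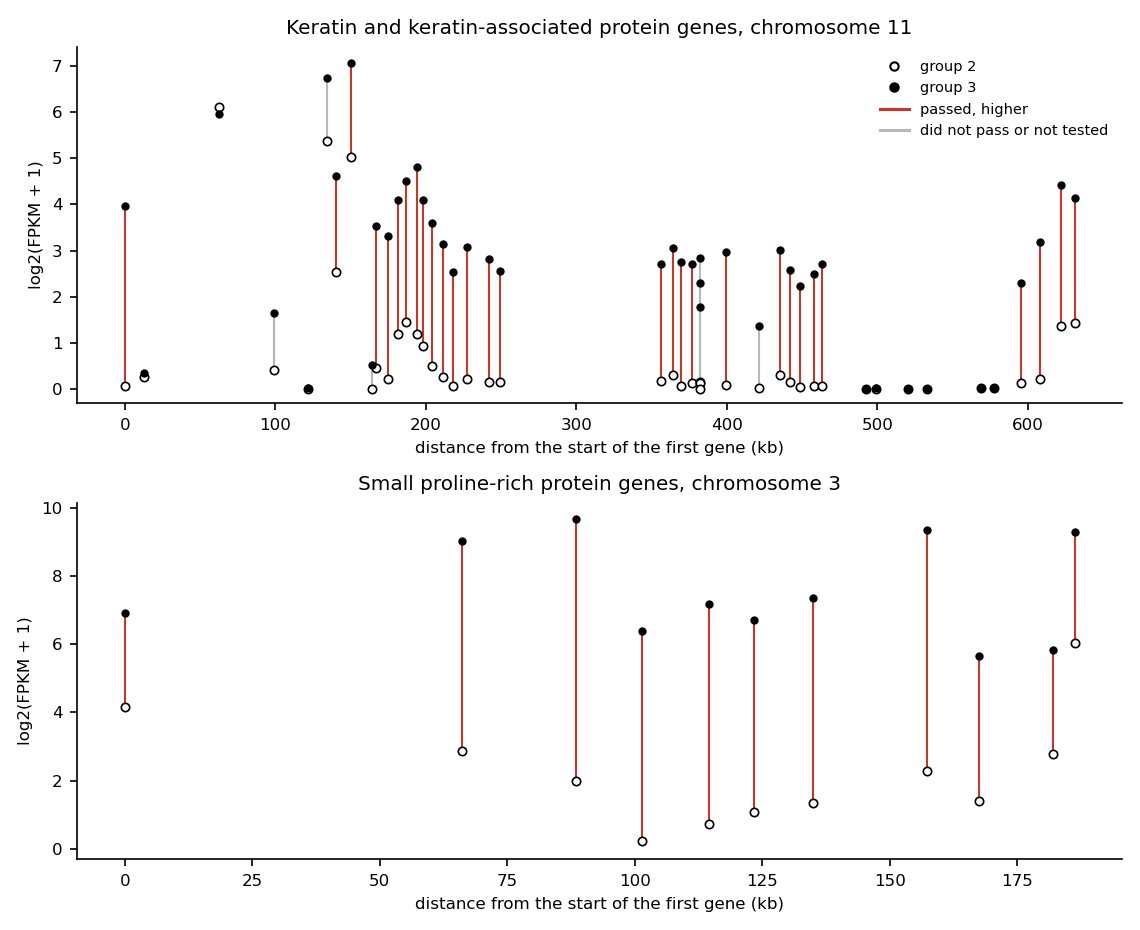
Levels in group 2 (open) and group 3 (filled), as log2(FPKM + 1), against distance in kb from the start of the first gene, for the keratin span of chromosome 11 (top, 45 gene rows) and the small proline-rich span of chromosome 3 (bottom, 11 gene rows). Red lines join the values of genes that passed. Each span was drawn from the first to the last of them, and 29 of 36 tested genes passed in the upper span and 11 of 11 in the lower.

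Such runs held many of the genes that rose. With neighbouring starts under 200 kb apart and 3 or more genes in a run, 80 of the 211 genes that rose (37.9%) lay in 11 runs. Of the 30 that fell, 0 did. A run needs 3 genes that passed, so a list of 30 had far less room to form one than a list of 211. The share expected over all tested genes was not worked out. Runs begin and end on genes that passed, which raises the share that passed within them. Sprr2 genes and Sprr1b formed a run on chromosome 3 (92054569 to 92242701), where the summed level went from 105.2 to 3330 FPKM. S100a8, S100a9 and the peptidoglycan-recognition gene Pglyrp4 formed another on that chromosome, with a median of 7.34 against 6.01 in the Sprr2 run and a summed level of 4760 FPKM in group 3. The others held stefins (chromosome 16, 5 of 9 tested genes), further Krtap genes (chromosome 16, 6 of 7), Il1f6, Il1f9 and Il1rn (chromosome 2, 3 of 5), the Tmprss11 serine proteases (chromosome 5, 3 of 3), Cxcl chemokines with the EGF receptor ligands Areg and Epgn (chromosome 5, 7 of 10), kallikreins (chromosome 7, 5 of 7) and alpha-class glutathione transferases (chromosome 9, 4 of 4). In the chemokine run the platelet chemokine Pf4 stood at 25.77 FPKM in group 2 against 16.91 in group 3, and did not pass.

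Some epidermal proteases and some protease inhibitors rose. Of 25 measured, 10 rose and 0 fell, the other 15 also had higher values in group 3, and the median was 1.66. The kallikreins that rose were Klk6 (0.1227 to 11.35 FPKM), Klk7, Klk8, Klk9 and Klk12; Klk7, which cleaves the links between cornified cells, went from 9.154 to 31.0 FPKM (1.66 ± 0.46). Among cysteine protease inhibitors of the stefin group, BC100530 rose from 2.09 to 47.46 FPKM (3.97 ± 0.56) and Stfa2 from 1.288 to 26.15 (3.57 ± 0.71). Serpinb2, an inhibitor of plasminogen activators, rose from 9.542 to 59.07 FPKM (2.51 ± 0.70). Spink5, which inhibits kallikreins, stood at 26.65 and 122.4 FPKM (2.16 ± 0.75) and did not pass. Of 14 measured enzymes of the lipid barrier and of protein cross-linking, 1 rose, the lipid transporter Abca12 (2.817 to 9.604 FPKM, 1.47 ± 0.43); the median was 1.05. The transglutaminase Tgm1, which cross-links the envelope, stood at 40.7 and 114.1 FPKM and did not pass.

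Among keratin and adhesion genes of the living cell layers, Krt1, a keratin of cornifying skin (chr15:101675857-101681217), rose from 1.99 to 66.66 FPKM (4.50 ± 0.55). Its partner Krt10 stood at 52.63 FPKM in group 2 against 407.3 in group 3 (2.93 ± 1.20) and did not pass. The mucosal keratins Krt76 (466.3 and 247.2 FPKM) and Krt24 (88.26 and 43.47) had lower values in group 3 without passing. The wound-induced keratins Krt6a, Krt6b and Krt16 were over the read limit in group 3. Krt12, known as the keratin of the corneal epithelium and named after its value was seen, stood at 0.05318 FPKM in group 2 against 14.64 in group 3 (3.89). Of 14 desmosome genes 1 passed, the desmoglein Dsg3 (7.955 to 54.57 FPKM, 2.63 ± 0.67), while 13 of 14 had a higher value in group 3 and the median was 1.30. Of 10 genes that anchor basal cells, 3 rose, among them the laminin chain Lama3 (1.178 to 4.026 FPKM, 1.21 ± 0.40) and the integrin Itga3 (3.44 to 10.64, 1.39 ± 0.45). P-cadherin, Cdh3, rose from 2.161 to 10.86 FPKM (1.91 ± 0.57), the only 1 of 12 measured mesenchymal transition genes to pass, with a list median of -0.23. The gap junction gene Gjb2 rose from 39.28 to 168.8 FPKM (2.08 ± 0.58), the only 1 of 7 measured connexins to pass, with a list median of 0.05. Of 15 measured transcription factors of squamous epithelium, 1 rose, the repressor Ovol1 (29.45 FPKM in group 3, a difference of 1.47 ± 0.46), and all 15 had higher values in group 3, with a median of 1.00. In whole tissue, a change in the number of cells of a type and a change in RNA per cell cannot be told apart, and this holds for every group of genes described here.

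Growth signals and cell division genes followed. Of 14 genes of EGF receptor ligands and signalling 3 rose, all ligands: Areg (0.5413 to 7.70 FPKM, 2.50 ± 0.56), Hbegf (2.404 to 14.62, 2.20 ± 0.52) and Epgn (6.522 to 23.81, 1.72 ± 0.48). The receptor Egfr itself stood at 3.072 and 4.671 FPKM and did not pass. Of 24 mitosis genes 8 rose, 24 of 24 had a higher value in group 3, and the median was 1.26. They were the survivin gene Birc5 (2.778 to 12.51 FPKM, 1.84 ± 0.59), the anaphase-promoting complex partner Ube2c (5.733 to 22.65, 1.81 ± 0.54), the cyclins Ccnb1 and Ccnb2, the topoisomerase Top2a, the kinases Aurkb and Ttk, and the proliferation marker Mki67 (1.154 to 5.461, 1.58 ± 0.42). With q under 0.01 in place of 0.05, Mki67 was the 1 mitosis gene that passed. Of 24 DNA replication genes 0 passed by the authors' test, though 24 of 24 had a higher value in group 3 with a median of 0.63; the largest was the S-phase cyclin Ccne1 (1.199 and 4.912 FPKM, 1.43 ± 0.51, q = 0.0571 in the authors' deposited table), which passed once the ratios were centred on their median (adjusted p = 0.0447). The cell cycle inhibitor locus Cdkn2a, named after its value was seen, rose from 0.2839 to 10.01 FPKM (3.10 ± 0.71). No gene of the p53 target list (18 measured, median 0.23) or of the DNA repair list (18 measured, median 0.08) passed.

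The mitosis genes are shown by 1 promoter, that of Ube2c. The cell cycle homology region TTTGAA, searched on both strands, was in 5 of the 7 matched promoters of mitosis genes that rose (71.4%), against 20.2% of all promoters, 14.6% of those of tested genes and 23.6% of those of genes that rose. The Ube2c window is chr2:164769679-164769928 (GRCm38.p6, RefSeq, + strand), and the capitals TTCAAA are TTTGAA read on the other strand, 29 bases before the start. The Mmp3 window, chr9:7445572-7445821 on the + strand, is shown because that matrix protease had the largest rise of its list; its capitals mark TTTGAA and then TGAGTCA, 46 bases before the start.
Ube2c: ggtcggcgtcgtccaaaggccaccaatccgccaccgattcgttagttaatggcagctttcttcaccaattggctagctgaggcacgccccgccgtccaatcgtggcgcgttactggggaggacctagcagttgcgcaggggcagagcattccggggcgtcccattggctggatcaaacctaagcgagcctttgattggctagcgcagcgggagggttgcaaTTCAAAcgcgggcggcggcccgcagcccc
Mmp3: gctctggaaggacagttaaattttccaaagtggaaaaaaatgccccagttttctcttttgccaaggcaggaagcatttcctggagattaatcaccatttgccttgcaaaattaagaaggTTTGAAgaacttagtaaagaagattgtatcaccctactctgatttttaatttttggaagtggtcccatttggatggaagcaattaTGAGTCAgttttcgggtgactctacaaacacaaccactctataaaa

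Of 17 measured genes of metalloproteinases and invasion 3 rose and 0 fell, with a median of 0.45. Stromelysin-1, Mmp3 (chr9:7445822-7455974), rose from 1.154 to 20.34 FPKM (3.31 ± 0.60), collagenase-3, Mmp13, from 0.09996 to 3.369, and Mmp9 as given with the neutrophil markers. The gelatinase Mmp2, made by connective tissue cells, stood at 27.78 and 27.83 FPKM. The inhibitor Timp1 stood at 2.144 and 4.571 FPKM and Timp3 at 52.95 and 24.4; neither passed.

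Glutathione supply and conjugation genes rose in part. Of 25 genes that NRF2 is known to drive or that clear oxidants, 3 rose and 0 fell, with a median of 0.53. All 3 act in making glutathione: the cystine transporter Slc7a11 (1.026 to 17.06 FPKM, 3.16 ± 0.43) and both subunits of glutamate-cysteine ligase, Gclc (7.943 to 48.22, 2.46 ± 0.48) and Gclm (18.71 to 72.73, 1.90 ± 0.46). Nqo1 (30.82 and 86.6 FPKM) and Hmox1 (15.03 and 41.68), other NRF2 targets, did not pass. The antioxidant response element core TGACNNNGC was in 13.7% of the matched promoters of genes that rose and in 17.1% of those of tested genes. Of 17 glutathione transferases and aldo-keto reductases 3 rose: Gsta1 (23.16 to 174.6 FPKM, 2.86 ± 0.47), Gsta2 (16.38 to 52.65, 1.63 ± 0.46) and Akr1b8 (4.536 to 36.3, 2.75 ± 0.47). Gsta1 and Gsta2 are near neighbours of similar sequence, and shared reads were not tested. The glucose transporter Slc2a1 rose from 10.47 to 44.63 FPKM (1.99 ± 0.50), while 14 of the 19 measured genes of glucose uptake and glycolysis had lower values in group 3. Prostaglandin synthase 2, Ptgs2, rose from 0.5984 to 3.867 FPKM (1.61 ± 0.46), and the retinaldehyde dehydrogenase Aldh1a3 from 0.7418 to 3.642 (1.41 ± 0.50).

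Of the 241 genes that passed, 140 are on no list, and those that follow were chosen after their values were seen. The eosinophil-associated ribonuclease Ear5 rose from 4.142 to 84.38 FPKM (4.05 ± 0.49), and all 3 tested genes of that family with a single symbol rose. The urate oxidase gene Uox rose from 0.1611 to 11.62 FPKM, and Nppb, which encodes a natriuretic peptide known from heart, from 0.05576 to 9.402. The hypoxia-inducible factor subunit Hif1a rose from 11.03 to 40.14 FPKM (1.77 ± 0.52), while of 12 measured hypoxia targets 1 rose, the carbonic anhydrase Car12 (12.53 to 38.07 FPKM, 1.53 ± 0.47). The growth factor binding protein Igfbp3 rose from 19.4 to 68.63 FPKM (1.77 ± 0.53) and the interleukin-4 receptor Il4ra from 2.438 to 8.22 (1.42 ± 0.45). The homeobox gene Isl1 went from 0.1039 to 3.415 FPKM, and Tlx1, another homeobox gene, from 0.9229 to 6.318 (1.93 ± 0.50).

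**Figure D3:**
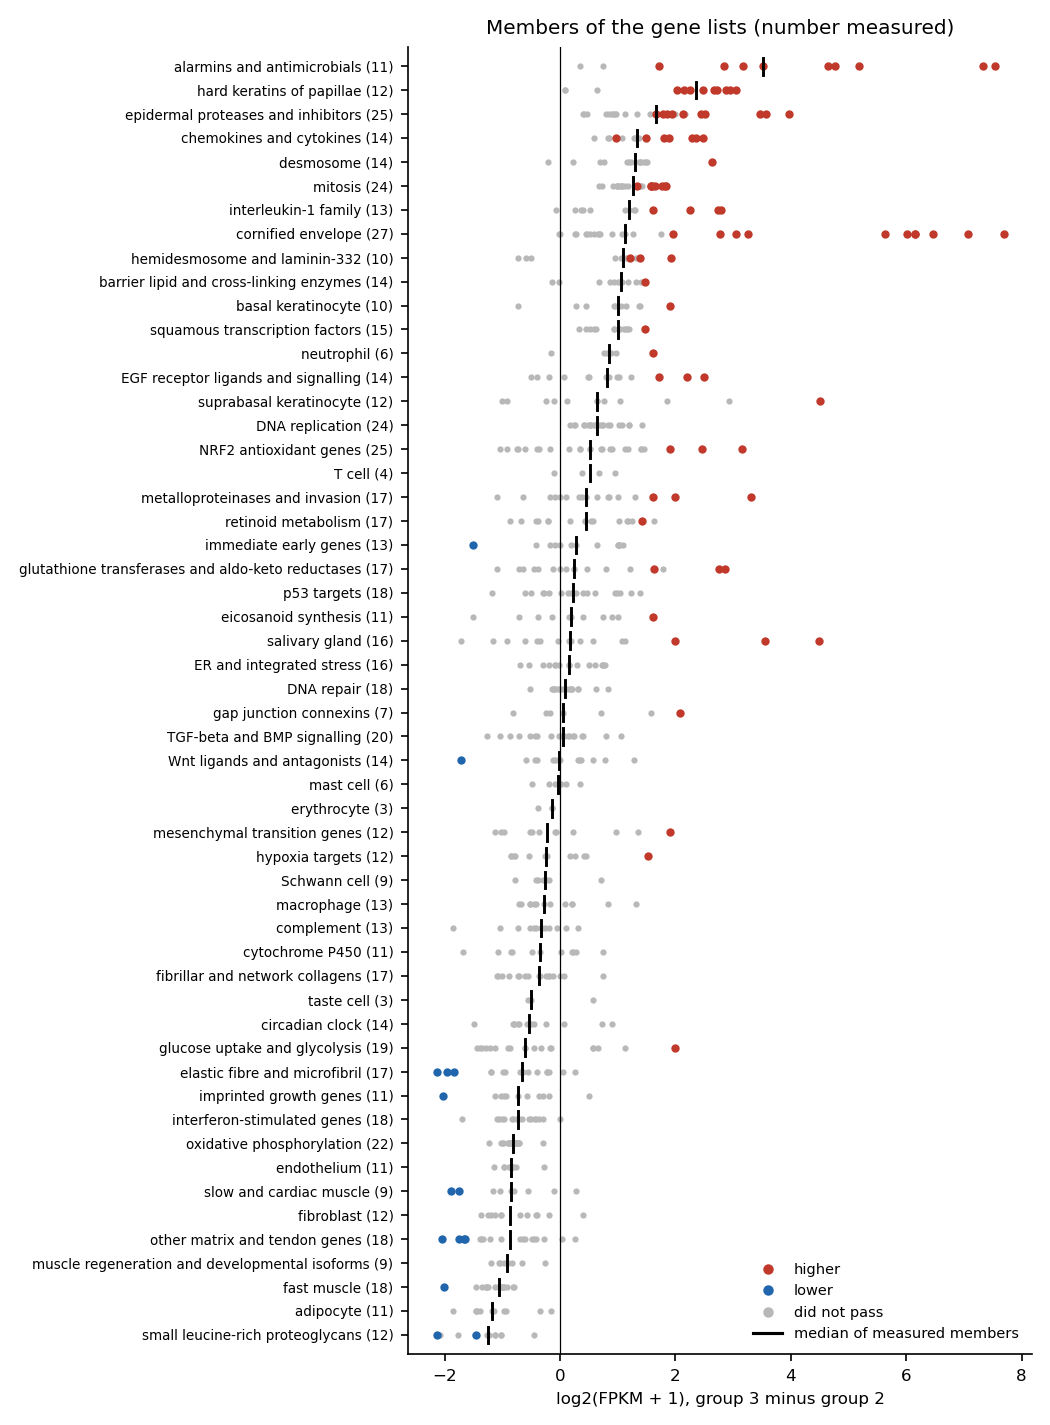
Difference of each measured gene, for gene lists with 3 or more measured members, as log2(FPKM + 1) of group 3 minus group 2. The number measured is in brackets. Red and blue points passed, grey points did not, and the black bar is the list's median. Lists of the cornifying epithelium and of inflammation lie at the top and lists of matrix, muscle and fat at the bottom, where few members passed.

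Of the 30 genes that fell, 15 are on a gene list, and 12 of these 15 are on lists of connective tissue matrix or muscle. The share of such lists among all tested list genes was not worked out. The lists were also chosen with earlier results of these data known. Over all tested genes 0.229% fell. Of 12 small leucine-rich proteoglycans, which space collagen fibrils, 2 fell and all 12 had lower values in group 3, with a median of -1.25. Keratocan, Kera (chr10:97069839-97076322), fell from 5.104 to 0.391 FPKM (-2.13 ± 0.36) and Prelp from 20.39 to 6.778 (-1.46 ± 0.42). Aspn (55.81 and 12.44 FPKM, -2.08 ± 0.77) and Dcn (531.7 and 262.8, -1.01 ± 0.66) did not pass. Of 17 measured genes on the elastic fibre and microfibril list 3 fell. They were the microfibril protein Mfap4 (59.52 to 14.62 FPKM, -1.95 ± 0.48), the fibulin Fbln7 (6.466 to 1.081, -1.84 ± 0.38) and Fibin (15.04 to 2.64, -2.14 ± 0.47). Fibin, named for fin bud initiation, is on this list but is a secreted factor and not a fibre protein. Elastin itself, Eln, stood at 7.78 and 6.504 FPKM. Of 18 other matrix and tendon genes 4 fell: C1qtnf3 (5.16 to 0.484 FPKM, -2.05 ± 0.34), the cartilage intermediate layer protein Cilp (44.37 to 12.43, -1.76 ± 0.43), the matricellular growth regulator Ctgf (80.98 to 24.84, -1.67 ± 0.45) and thrombospondin-4, Thbs4 (48.13 to 14.74, -1.64 ± 0.44). No collagen of 17 measured passed, with a median of -0.37; Col1a1 stood at 14.74 and 12.84 FPKM. The secreted Wnt antagonist Sfrp4 fell from 25.32 to 7.004 FPKM (-1.72 ± 0.48), the only gene of 14 on the Wnt list to pass. The imprinted RNA H19 fell from 454.3 to 111.0 FPKM (-2.02 ± 0.61), and 10 of 11 measured imprinted growth genes had lower values in group 3. H19 overlaps the microRNA row Mir675. The immediate early nuclear receptor Nr4a1 fell from 61.97 to 21.17 FPKM (-1.51 ± 0.45), and no longer passed once the ratios were centred on their median (adjusted p = 0.0533).

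Marker lists of connective tissue, vessels and fat were lower in group 3 as well, without a gene that passed. The 12 fibroblast markers had a median of -0.86 and a summed level of 1164 FPKM in group 2 and 715.3 in group 3. The 11 endothelial markers all had lower values, with a median of -0.85 and a summed level of 127.6 and 64.39 FPKM. The 11 adipocyte markers all had lower values too, with a median of -1.18 and a summed level of 827 and 369.9 FPKM. The part of these cell types in the falls of matrix genes was not tested. The macrophage list, with 13 markers measured and 0 passed, summed to 389.6 and 371.3 FPKM. T cell markers summed to 7.283 and 14.15 FPKM, and B cell markers to 0.6142 and 1.03, with no B cell marker at 1 FPKM.

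Muscle genes followed the same direction. All 18 measured fast muscle genes had lower values in group 3, with a median of -1.06, and 1 passed, the myosin-binding protein Mybpc2 (79.62 to 19.02 FPKM, -2.01 ± 0.55). The fast troponin Tnnc2 stood at 7320 and 3354 FPKM (-1.13 ± 0.99). The list's summed level was 38210 FPKM in group 2 and 18230 in group 3, with Acta1 over the read limit. Of 9 slow and cardiac muscle genes 2 fell, the cardiac-type actin Actc1 (315.7 to 84.86 FPKM, -1.88 ± 0.56) and the stretch-responsive Ankrd1 (76.88 to 22.26, -1.74 ± 0.48). All 22 oxidative phosphorylation genes had lower values, with a median of -0.82, and 0 passed; the muscle-type subunit Cox7a1 stood at 1901 and 813.3 FPKM. How far the share of muscle in the samples moved these values was not tested.

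Of 16 measured salivary genes 3 rose and 0 fell, with a median of 0.18. The secreted carbonic anhydrase Car6 (chr4:149561125-149575244) rose from 2.533 to 77.97 FPKM (4.48 ± 0.81), the prolactin-inducible protein Pip from 0.222 to 13.39 (3.56 ± 0.76) and lactoperoxidase Lpo from 0.4163 to 4.652 (2.00 ± 0.44). Dcpp1 (-1.72 ± 0.74) and Dcpp3 (267.2 and 119.2 FPKM, -1.16 ± 0.74) had lower values without passing, and the abundant Bpifa2 (1117 and 2425 FPKM) and amylase Amy1 (3713 and 5543) had higher ones. The list's summed level was 6581 and 9421 FPKM.

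Groups 1 and 4 show where these levels lie in the series. For 14 of the 15 largest rises the log2 levels of groups 1 and 2 both lay more than 3 below those of groups 3 and 4, Car6 being the exception. S100a8, for instance, stood at 6.673, 13, 2602 and 3184 FPKM in groups 1 to 4, and Krt1 at 2.054, 1.99, 66.66 and 62.19. Saa3, at 0.3279, 0.3822, 48.9 and 13.93 FPKM, had its highest value in group 3. Car6 stood at 5.355, 2.533, 77.97 and 2.722 FPKM, high in group 3 alone, and group 4 differed from group 3 (q = 0.000162 in the authors' deposited table). Il19, at 0, 0.02973, 4.719 and 0.3314 FPKM, and Krt12, at 0.03045, 0.05318, 14.64 and 0.3202, were also lower in group 4 than in group 3 (q = 0.00552 and q = 3.96e-06 in the authors' deposited table). In that comparison 38 of 12918 genes passed (0.294%). Of the 15 largest falls, Fibin, C1qtnf3, H19, Mfap4, Fbln7, ORF63, Cilp, Sfrp4, Ptgfr and Ccdc80 had their highest level in group 2. Kera, Mybpc2, Actc1, Gm20579 and Ankrd1 had theirs in group 1. Sfrp4 and Cilp were higher in group 2 than group 1 (q = 0.00345 and q = 0.0493 in the authors' deposited table). Against group 1, Fibin, H19, Mfap4 and Fbln7 were lower in group 3 at q under 0.05. There C1qtnf3, ORF63, Cilp, Sfrp4, Ptgfr and Ccdc80 did not pass. Ctgf stood at 39.0, 80.98, 24.84 and 29.71 FPKM, and its level in group 2 was above that in group 1 (q = 6.15e-05 in the authors' deposited table). Slc25a25, a mitochondrial ATP-magnesium carrier named after its values were seen, stood at 7.377, 26.22, 8.302 and 12 FPKM, and group 2 was again above group 1 (q listed as 0 in the authors' deposited table). In group 2 against group 1, 0.899% of genes passed. Kera, in contrast, stood at 6.457, 5.104, 0.391 and 0.05852 FPKM.

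**Figure D4:**
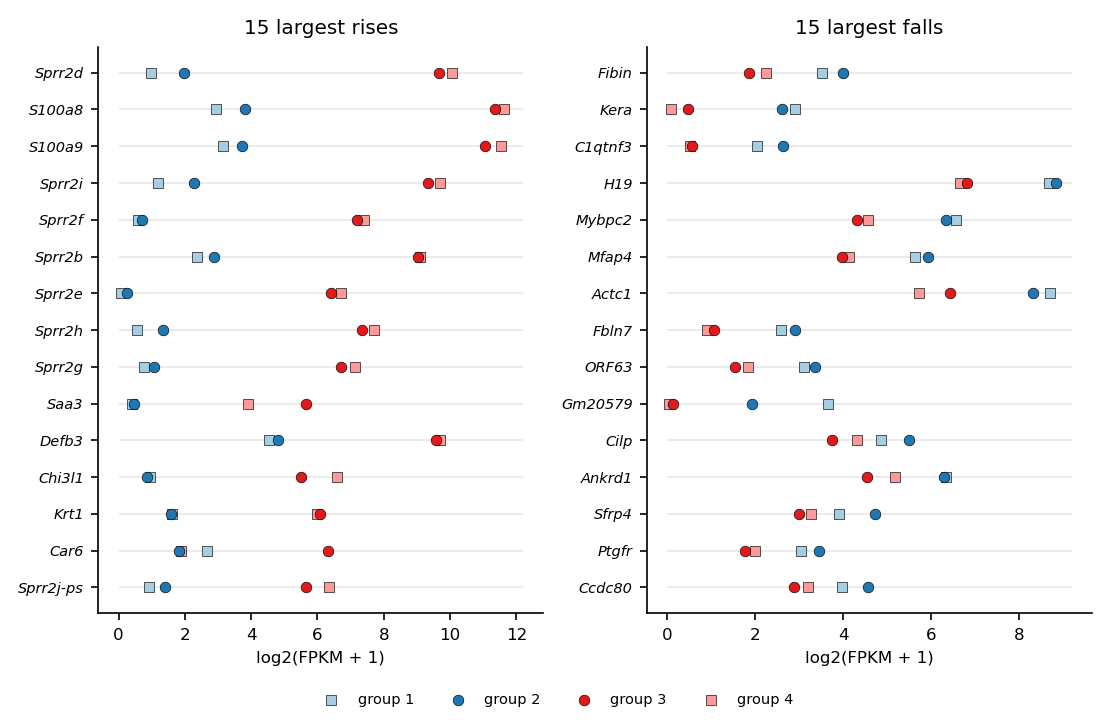
Levels, as log2(FPKM + 1), of the 15 genes with the largest rise (left) and the 15 with the largest fall (right) in group 3 against group 2, in all 4 groups; circles are groups 2 and 3 and squares are groups 1 and 4. For the rises the values of groups 3 and 4 lie together far to the right, apart from Saa3, Chi3l1 and Car6, whose 2 values are well apart, with group 4 of Car6 beside groups 1 and 2.

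Group 4 against group 1 shares no group with this comparison, so its values can be set beside these. There 1167 of 13111 genes passed (8.9%), 655 higher in group 4 (5.0%) and 512 lower (3.91%). Of the 211 genes higher in group 3 than group 2, 184 were also higher in group 4 than group 1 (87.2% of the 211 and 28.1% of the 655) and 0 were lower. Of the 30 that fell, 18 also fell there (60.0% of the 30 and 3.52% of the 512). Medians of the rises were 2.04 in this comparison and 1.87 in the other, over the genes tested in both, and medians of the falls were -1.68 and -1.06. The genes were picked for passing in this comparison, which by itself makes its medians larger, so the 2 sizes cannot be ranked by these values. Over the 12860 genes tested in both, the differences had a Pearson r of 0.71, a description across genes, which are not independent replicates.

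The difference of the 2 differences was tested per gene, as a 2-sided normal deviate with the 4 group variances, adjusted by Benjamini-Hochberg over 12741 genes. It passed for 16 genes (0.126%), and 122 had an unadjusted p under 0.05. Only 2 of the 16 are among the 241 genes that passed in group 3 against group 2. Car6 differed by 5.25 ± 0.93 (adjusted p = 4.84e-05), with 4.48 ± 0.81 here and -0.77 ± 0.47 in group 4 against group 1. Slc25a25 differed by -2.18 ± 0.54 (adjusted p = 0.0382), with -1.55 ± 0.45 here and 0.63 ± 0.30 there. The difference of the differences was positive for 12 of the 16, Car6 among them, and negative for 4, and 5 of the 16 are on the salivary list. The largest positive one was that of the amylase Amy2b, with 0.25 ± 0.59 in group 3 against group 2 and -6.94 ± 0.17 in group 4 against group 1. Amy2b stood at 139.1, 1.095, 1.49 and 0.1393 FPKM in groups 1 to 4, high in group 1 alone. Its level in group 4 did not differ from that in group 3 (q = 0.191 in the authors' deposited table). Dcpp2, on the salivary list, stood at -0.61 ± 0.72 here and -5.91 ± 0.57 there. The glandular kallikrein Klk1 had the largest negative one, with -1.48 ± 0.64 here and 1.91 ± 0.48 there, and the neutrophil marker Retnlg stood at 0.76 ± 0.58 and 4.04 ± 0.49. Krt12 and Il19 could not be tested in this way, because their group variances could not be had.

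**Figure D5:**
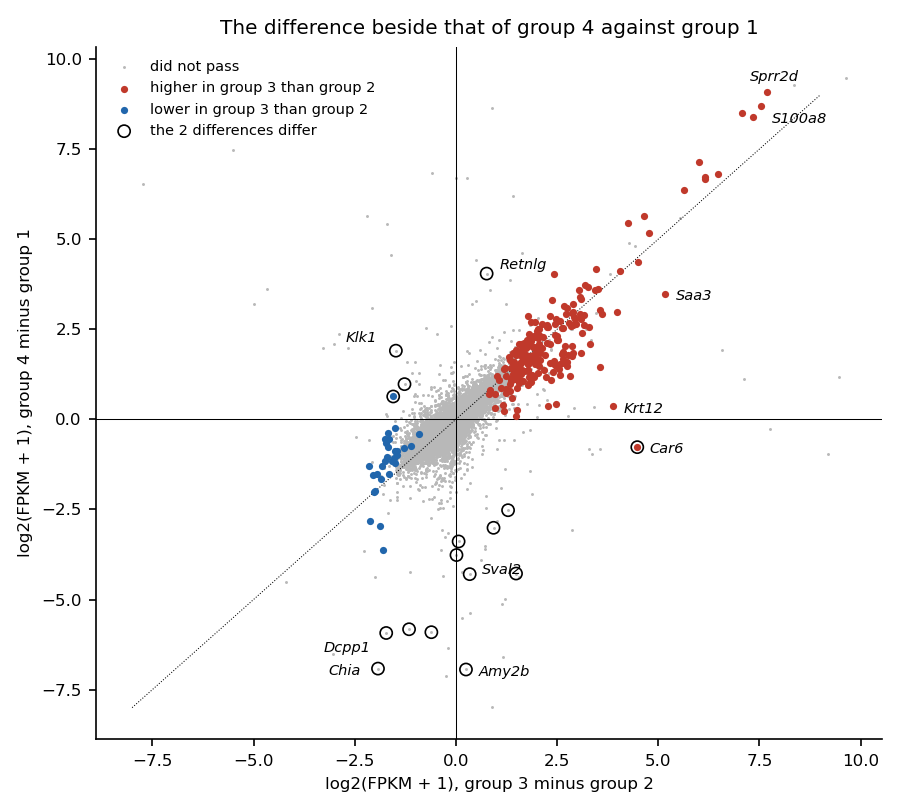
Difference in log2(FPKM + 1) of group 3 minus group 2 (x axis) and of group 4 minus group 1 (y axis) for each gene with both values; red and blue points passed in group 3 against group 2, circles mark the 16 genes whose 2 differences differ, and the dotted line marks equal differences. Most red points lie near the dotted line, and Car6 lies at 4.48 and -0.77.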

How the data were processed

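Poly-A RNA of 12 tongue samples went through Illumina HiSeq2000 sequencing, with mm9 as the reference genome, per the labels and the series design text. The submitters' processing notes list GSNAP 2011.11.17 and edgeR but not what each did. The authors deposited 1 FPKM per gene and group, which the design text credits to Cufflinks, in 6 tables of group pairs, with a test statistic (a score), a p-value and a q-value, per the file headers. Depth per sample is unknown. The q-values equal a Benjamini-Hochberg adjustment over all 92458 tests of the 6 tables to within 3.4e-06.

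From these, log2((FPKM + 1) of group 3 / (FPKM + 1) of group 2) was computed with Python 3.11.15, numpy 2.4.6, pandas 2.3.3 and scipy 1.17.1, and figures with matplotlib 3.10.9. SEs came from the deposited FPKM ratio and score: each gene's 6 squared errors, 1 per pair of groups, were split by least squares into 4 group variances (14590 genes, largest relative misfit under 0.01) and moved to the log2(FPKM + 1) scale. No SE could be had for 46 of the 241 genes that passed. Code was tested on simulated data. No count test was possible on these values.

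Of the 23235 rows, 15369 were tested by the authors, 7667 were not, 153 were complex or shallow, 26 failed and 20 exceeded the read limit, where a listed 0 is not a real 0. Named genes are the 15 largest rises and falls with 1 symbol, up to 3 genes of each of 56 lists (863 of 887 list genes were found by symbol), 4 markers of the comparison and 6 tissue markers; others were named after their values were seen, as further list members or as marked. Rows with a date for a symbol (25) or several symbols (90) were not named. Genes and lists were chosen with earlier results of these data known. Promoter sequences are from RefSeq, GRCm38.p6. Alternatives were other thresholds, filters, adjustments, pseudocounts, centring and a shared variance.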

Additional observations from a re-analysis of the deposited data

Results flagged for a closer look

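For 16 genes the difference between groups 3 and 2 departed from the difference between groups 4 and 1. The values that follow are the first minus the second on the log2(FPKM + 1) scale. Besides Car6 they were positive for Amy2b (7.19), A630073D07Rik (5.77), Dcpp2 (5.3), Chia (4.99), Dcpp3 (4.67), Sval2 (4.64), Dcpp1 (4.21), Odam (3.94), 4931407G18Rik (3.81), Azgp1 (3.78) and Bhlha15 (3.46). They were negative for Klk1 (-3.39), Retnlg (-3.28), Apold1 (-2.25) and Slc25a25 (-2.18). Of the 16, Car6 and Slc25a25 also passed in group 3 against group 2.

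For Car6, the secreted carbonic anhydrase, the value was 5.25 ± 0.93 (SE), with an adjusted p of 4.84e-05 from a normal deviate per gene, adjusted by Benjamini-Hochberg over 12741 genes. Group 3 alone was high, at 77.97 FPKM, and the other groups stood between 2.533 and 5.355 FPKM. No values per sample were used, so whether 1 sample of group 3 carries this level was not tested.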

How the results depend on the processing

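No paired analysis was possible because the tables hold 1 value per gene and group, and for the same reason no replicate could be left out. With q under 0.01, 144 genes passed in place of 241, 139 higher in place of 211 and 5 lower in place of 30. There the count of genes past the test moved by over 1.5 times in 17 lists and came to 0 in 13 of them; mitosis genes went from 8 to 1, epidermal proteases and inhibitors from 10 to 6, basal anchoring genes from 3 to 1 and other matrix genes from 4 to 2. With 1 variance per gene shared by the 4 groups, 413 passed, 291 higher and 122 lower, so the share of rises among calls fell from 87.6%; all 195 of the 241 that could be tested this way were kept, and the other 46 have no variance estimate. Adjusting p within the comparison over genes past the filter left 18 falls. Other filters, a log2 difference of at least 1 and centring (shift -0.06 in log2 ratio) moved no count by over 1.5 times; centring gave 235 higher and 23 lower. Under it, of the named genes, Ccne1 came past the threshold (1.49, adjusted p = 0.0447) and Nr4a1 left it (-1.45, adjusted p = 0.0533). The sign of 3 list medians turned: connexins (0.05) without a filter (-0.0585), Wnt genes (-0.02) centred (0.0425) or at 5 FPKM (0.32), and neutrophil markers (0.85) at 5 FPKM (-0.16), where 1 of the 6, Ltf, was left. The larger errors of group 3 limit what this comparison can detect, and 82 genes listed at 0 in 1 group, 71 of them with microRNA or small nucleolar RNA symbols, had 0 calls.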
